A study of Mus musculus with 50 samples.

Results

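The gene module described here holds 33 mouse genes of sterol synthesis and of its control by the sterol regulatory element binding proteins (SREBP). The rule lists the members by name, from what their products do. They were chosen with earlier results of these data known. All 33 were found among the 55011 genes of the count table. By role they fall into 8 genes of the early and isoprenoid steps, 12 genes of the steps from squalene to cholesterol, 6 genes of the SREBP machinery and 7 other targets and carriers of cholesterol.

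The module was followed in 50 RNA-seq libraries of CD4 T cells of the regulatory lineage (Treg) from male mice, sorted cytometrically in lots of 500 to 1000 cells. Of these, 18 come from the thymus of B6.Cg-Foxp3tm1Kuch/J mice, whose Foxp3 locus reports with GFP. They hold 2 progenitor populations, P1 (CD4+CD8-CD25+Foxp3-) and P2 (CD4+CD8-CD25-Foxp3+), each sorted 5, 12 and 49 days after birth with 3 libraries per age. The other 32 hold CD4+Foxp3GFP+ Treg of mice with the Foxp3tm3(HBEGF/GFP)Ayr allele on the B6.129(Cg) background, labelled week 20. In that strain the Foxp3 locus drives a diphtheria toxin receptor fused to GFP, so the toxin depletes Treg. These libraries come from spleen, lung, liver and ear skin with 3 PBS-labelled and 3 DT-labelled libraries each, and from visceral adipose tissue (VAT) with 4 of each. All libraries, the DT-labelled ones included, have WT as their genotype label. The series text describes the toxin being given at week 12 on 3 days in a row to littermates with and without the receptor, followed by 8 to 9 weeks of rest. The labels name PBS and DT instead, so the arms are called by their labels, and what the PBS-labelled mice received cannot be told from these sources. The labels do not say whether each library is a mouse of its own, so p-values measure only the spread between these libraries.

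Cells make cholesterol from acetyl-CoA through mevalonate, isoprenoid diphosphates, squalene and lanosterol. When sterol in the membrane of the endoplasmic reticulum is low, Scap carries the SREBP precursor to the Golgi, where the proteases encoded by Mbtps1 and Mbtps2 release a transcription factor that switches on most enzymes of the pathway. When sterol is high, the Insig proteins hold Scap back, and oxysterols activate LXR, which induces cholesterol export. Dividing lymphocytes need new membrane, and the isoprenoids of the same pathway anchor small GTPases.

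The promoters of 3 members are shown because these genes were among those lower at day 49 than at day 5 in both thymic populations and higher in liver Treg than in spleen Treg. Each window runs from 250 bases before to 50 bases after the annotated start (RefSeq, GRCm38.p6) and is printed 5′ to 3′ on the strand of the gene. Capitals mark exact matches, on either strand, to TCACNCCAC (a sterol regulatory element core), CCAAT (the box bound by NF-Y) and GGGCGG (the box bound by Sp1). On the other strand CCAAT reads ATTGG and GGGCGG reads CCGCCC. Hmgcs1 is at chr13:119690101-119690400 on the + strand, Cyp51 at chr5:4104648-4104947 on the - strand and Insig1 at chr5:28071162-28071461 on the + strand.
Hmgcs1: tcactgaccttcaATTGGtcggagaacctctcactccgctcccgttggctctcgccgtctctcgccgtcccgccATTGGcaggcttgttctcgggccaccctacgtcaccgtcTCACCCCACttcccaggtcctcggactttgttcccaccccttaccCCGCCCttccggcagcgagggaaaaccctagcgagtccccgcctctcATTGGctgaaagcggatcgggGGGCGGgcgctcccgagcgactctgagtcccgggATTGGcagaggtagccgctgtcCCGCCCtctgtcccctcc
Cyp51: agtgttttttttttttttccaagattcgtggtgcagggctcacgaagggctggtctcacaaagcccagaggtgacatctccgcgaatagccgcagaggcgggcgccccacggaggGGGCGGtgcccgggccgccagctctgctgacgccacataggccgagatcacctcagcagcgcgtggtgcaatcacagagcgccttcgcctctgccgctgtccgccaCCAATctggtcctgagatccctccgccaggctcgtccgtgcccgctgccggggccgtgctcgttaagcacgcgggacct
Insig1: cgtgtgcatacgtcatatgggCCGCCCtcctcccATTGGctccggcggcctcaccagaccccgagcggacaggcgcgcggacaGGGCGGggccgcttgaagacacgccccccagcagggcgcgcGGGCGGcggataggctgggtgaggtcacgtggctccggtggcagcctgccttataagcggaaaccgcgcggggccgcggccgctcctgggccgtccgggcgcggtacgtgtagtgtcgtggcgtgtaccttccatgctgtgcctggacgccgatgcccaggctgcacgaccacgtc
The Hmgcs1 window held 1 sterol regulatory element core, 4 CCAAT and 3 GGGCGG matches. The Cyp51 window held 1 CCAAT and 1 GGGCGG match, and the Insig1 window 1 CCAAT and 3 GGGCGG matches. A window was found for 27 of the 33 members. CCAAT was present in 22 of these 27 (81.5%), against 41.1% of the 27025 genes with a window. GGGCGG was present in 24 (88.9%), against 38.2% of genes. CCAAT and GGGCGG stood together in the window of 19 members (70.4%), against 14.5% of genes. The strict sterol regulatory element core was present in Hmgcs1 alone among the members (3.7%), against 1.44% of genes. A looser form, TCACNNCAC, which contains the strict form and was chosen after seeing the data, was present in Hmgcs1, Msmo1, Hsd17b7 and Dhcr7 (14.8%), against 4.37% of genes. A match is a description of letters, and its absence says nothing about binding of the factor.

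Total counts ran from 2521078 to 6981037 per library. The sorted populations carried their labelled markers: Foxp3 was at 5.05 to 19.5 normalised counts scaled to library size (CPM) in P1, at 278 to 852 in P2 and at 241 to 499 in the periphery, except for replicate 1 of PBS-labelled spleen with 120. Some libraries stood apart in the number of genes detected after thinning to 2521078 counts. The P1 libraries of day 12 had 24487 to 29485 such genes against 17893 to 18651 in P1 at day 5, and replicates 2 and 3 of P2 at day 49 had 27203 and 26794 against 18815 in replicate 1. The summed level of 8 macrophage markers was 28.2 to 151 CPM in P2 at day 49 and 5 to 12.1 CPM in P2 at day 5. In ear skin 27096 to 31987 genes were detected per library. In bulk libraries, fewer cells of a type and less RNA per cell cannot be told apart.

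Across the 16 groups the module was highest in P1 at day 5 and lowest in P2 at day 49. The module score, the mean log2 CPM over the 33 members, was 5.94 ± 0.04 (SD over the libraries of a group, 4 in VAT and 3 elsewhere, here and below) in P1 at day 5, 5.39 ± 0.13 at day 12 and 4.96 ± 0.12 at day 49. In P2 it was 5.29 ± 0.04, 4.85 ± 0.02 and 4.39 ± 0.12 at the same ages. No library of a thymic age group overlapped another age group of its population on this scale, and each P2 group lay below the P1 group of its age. In the periphery the score was 5.26 ± 0.25 in PBS-labelled and 5.16 ± 0.18 in DT-labelled spleen, 5.27 ± 0.14 and 5.45 ± 0.03 in lung, and 5.68 ± 0.09 and 5.77 ± 0.13 in liver. It was 5.27 ± 0.27 and 5.26 ± 0.04 in ear skin and 5.55 ± 0.16 and 5.53 ± 0.25 in VAT. Thymus and periphery differ in strain, age and tissue and are only set side by side.

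**Figure D1:**
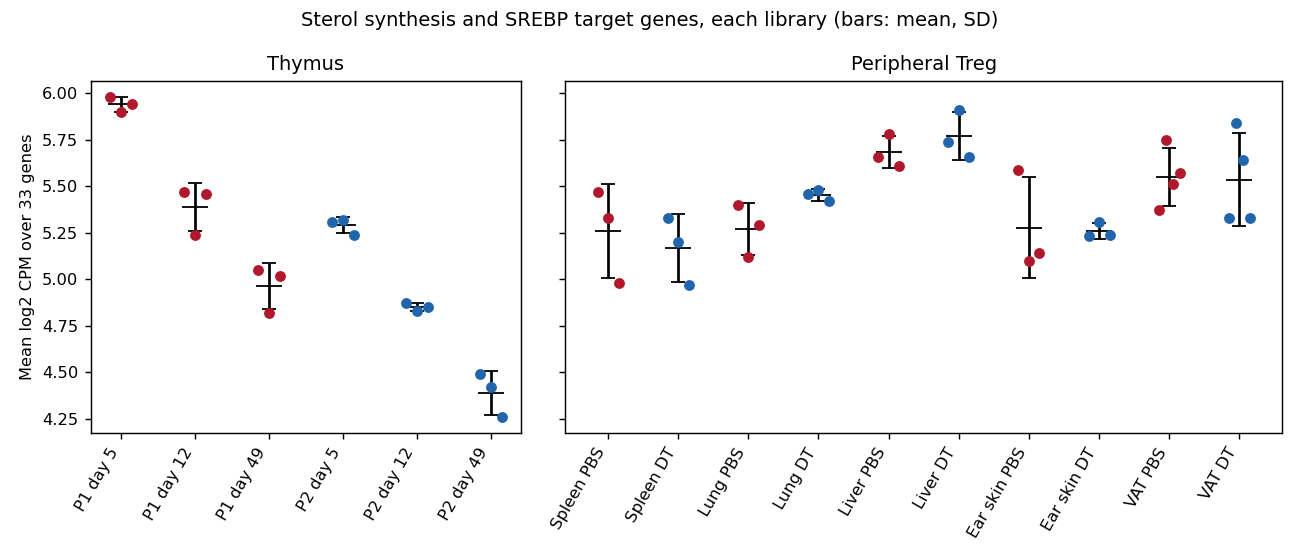
The score of the module (mean log2 CPM over 33 members, vertical axis) is plotted for each of the 50 libraries by group, with red points for P1 or PBS-labelled and blue points for P2 or DT-labelled libraries. The P1 libraries of day 5 sit highest (mean 5.94) and the P2 libraries of day 49 lowest (mean 4.39), and among the peripheral groups the 2 liver arms have the highest means (5.68 and 5.77).

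The members did not move as a block. For each gene the rank correlation of its 16 group means with the mean of the other 32 members was taken as a measure of likeness, given as a description because groups share libraries, depth and scaling. It was highest for Sqle (squalene epoxidase, rho = 0.83), Cyp51 (the lanosterol demethylase, 0.82), Hmgcs1 (HMG-CoA synthase, 0.80) and Pmvk (phosphomevalonate kinase, 0.80). It was over 0.5 for 19 members and below 0 for 7. The lowest values belonged to Npc1 (lysosomal cholesterol export, -0.54), Insig2 (a paralogue of Insig1, -0.51) and the protease gene Mbtps1 (-0.43). The ratio between the highest and the lowest group mean was 54.4 for Fads2, which was scarce throughout (7.83 to 0.144 CPM), 34.9 for Sqle, 27.9 for Insig1 and 17.2 for Tmem97. Per kilobase of annotated exon, the most abundant members in P1 at day 5 were Lbr (88.5 CPM per kb), Acly (84.6) and Npc2 (73.5), and the least abundant were Mbtps2 (1.67) and Idi1 (1.92).

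**Figure D2:**
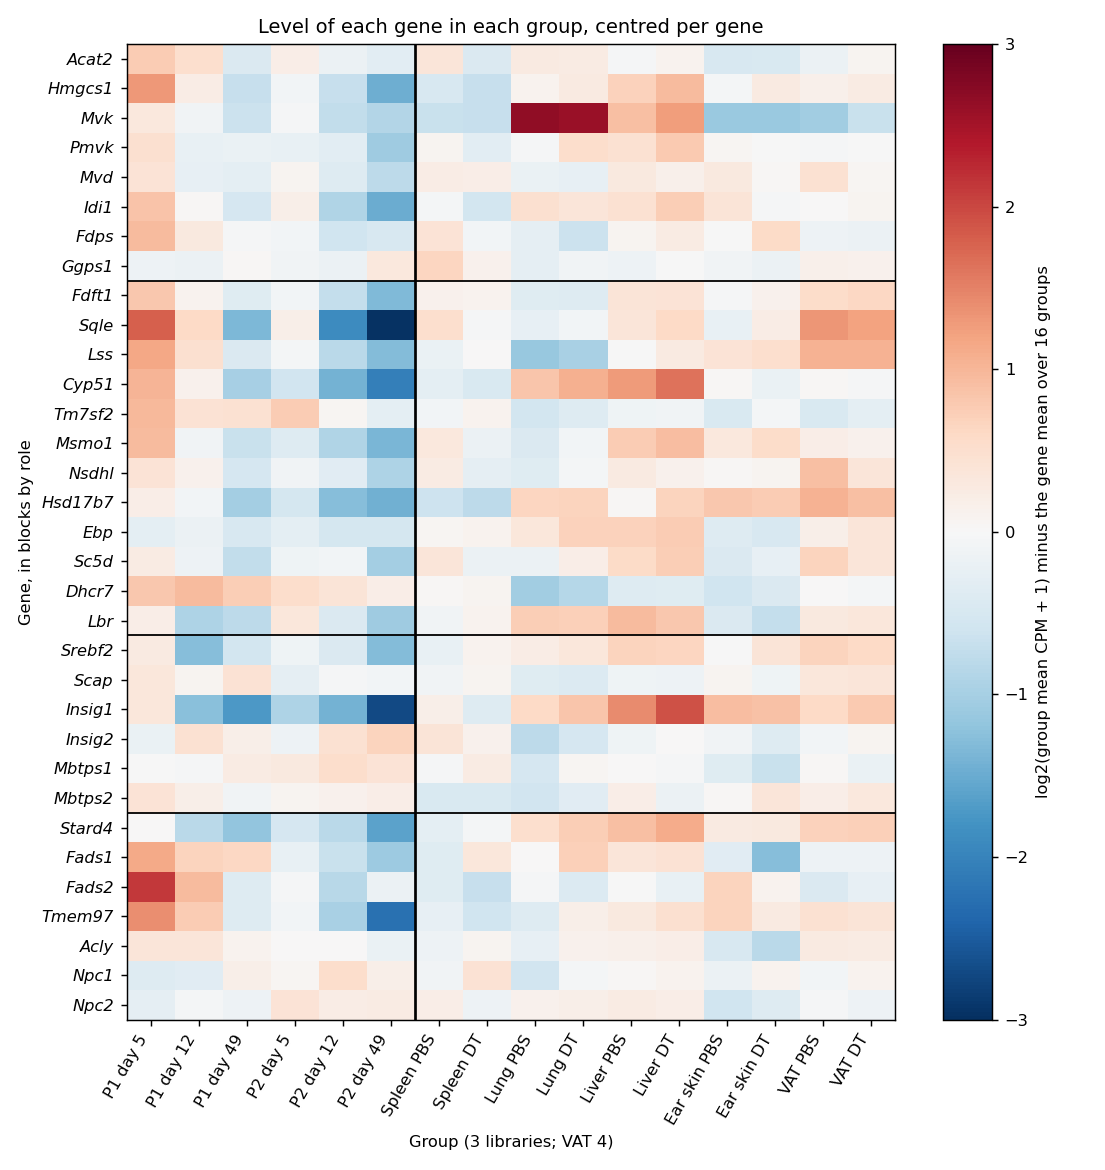
Each row is a member, grouped by role, and each column a group of libraries; colour gives log2(group mean CPM + 1) minus the mean of that gene over the 16 groups, with the scale limited to -3 and 3. P1 at day 5 is the highest group for 9 of the 20 synthesis enzymes and P2 at day 49 the lowest for 13, while Npc1, Insig2 and Mbtps1 do not follow that order.

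The comparison of ages within P1 addresses how CD25+Foxp3- progenitors of the perinatal thymus differ from those of the young adult. Enzymes of the pathway were lower in the older thymus, most of all squalene epoxidase, and genes of the lysosomal end of cholesterol handling were not. At day 49 against day 5, 20 of 33 members fell and 1 rose (adjusted p below 0.05, edgeR quasi-likelihood F test with Benjamini-Hochberg adjustment over all genes tested, used for every count of calls below). Of all 14696 genes tested, 6.64% fell and 4.16% rose. The median log2 fold change was -1.0 over the members and 0.00 over all genes. By role, 7 of 8 early genes, 8 of 12 genes from squalene to cholesterol, 2 of 6 machinery genes and 3 of 7 other genes fell. Of the 21 calls, 11 were made again whichever library was left out. The count was 12 without replicate 1 of P1 at day 5, 13 without replicate 2 of that group and 13 without replicate 2 of P1 at day 49.

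Among the early genes, Hmgcs1 was at 204, 208 and 203 CPM in the P1 libraries of day 5, at 112, 83.8 and 91.3 at day 12 and at 40.6, 54.9 and 55.7 at day 49. Each age lay below the one before without overlap, with a log2 fold change from day 5 to day 49 of -2.03 ± 0.14 (SE), adjusted p = 3.24e-09. Idi1, the isopentenyl diphosphate isomerase, was scarce, with 6.84, 6.07 and 7.32 CPM at day 5, 3.26, 4.71 and 2.32 at day 12 and 2.29, 1.14 and 2.6 at day 49. Its fall was close to the threshold, with -1.74 ± 0.56 (SE), adjusted p = 0.0497, and was lost on leaving out any 1 library of these groups. Fdps, which makes farnesyl diphosphate, was at 38.7, 35.1 and 29.3 CPM at day 5, 24, 23.8 and 16.9 at day 12 and 22.5, 14.6 and 13.7 at day 49 (-1.03 ± 0.27 (SE), adjusted p = 0.0135). The libraries of day 49 all lay below those of day 5. Acat2 (cytosolic acetoacetyl-CoA thiolase) went from 37.7 ± 3.03 to 16.1 ± 2.26 CPM (-1.23 ± 0.25 (SE), adjusted p = 0.0017). Mvk (mevalonate kinase), Pmvk and Mvd (mevalonate diphosphate decarboxylase) fell by 1.0, 0.71 and 0.73 on the log2 scale. Ggps1, which makes geranylgeranyl diphosphate, was the early gene not called (0.18 ± 0.18 (SE), adjusted p = 0.635).

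From squalene onward, Sqle was at 123, 106 and 120 CPM in P1 at day 5, at 51.2, 42.3 and 56.5 at day 12 and at 9.62, 10.9 and 16.3 at day 49. The groups were far apart at every step, and the change to day 49 was -3.24 ± 0.26 (SE), adjusted p = 2.48e-08 on the log2 scale. Cyp51 was at 190, 193 and 165, at 96.1, 88.3 and 110 and at 39.4, 46.9 and 46.9 CPM at the 3 ages (-2.05 ± 0.21 (SE), adjusted p = 5.32e-07). Msmo1, the methylsterol monooxygenase, was at 91.3, 91.5 and 113, at 52.1, 39.9 and 48.1 and at 34.4, 30.1 and 29.3 CPM (-1.67 ± 0.20 (SE), adjusted p = 3.79e-06). In both genes the ages did not overlap. Lss (lanosterol synthase), Fdft1 (squalene synthase), Sc5d (a sterol desaturase) and Nsdhl (a sterol dehydrogenase) fell by 1.65, 1.2, 1.0 and 0.95. Lbr, a sterol reductase that also anchors chromatin at the nuclear envelope, had another time course, with 444, 392 and 428 CPM at day 5, 199, 163 and 215 at day 12 and 196, 231 and 209 at day 49. It fell by day 12 (-1.01 ± 0.12 (SE), adjusted p = 9.95e-05) and from day 12 to day 49 was not called (0.01 ± 0.12 (SE), adjusted p = 0.959). Tm7sf2 (the other sterol reductase of the same step), Hsd17b7, Ebp and Dhcr7 (reductase and isomerase steps late in the pathway) were not called at day 49 against day 5. Cyp51 overlaps Akap9, Lbr overlaps Dnah14, Ggps1 overlaps Arid4b, Npc1 overlaps Rmc1 and Fdft1 overlaps Ctsb in the annotation. Tm7sf2, Fdps, Mvd and Mbtps2 also overlap protein-coding genes. Whether counting used strand is not given, so the counts of these members may hold reads of the neighbour.

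In the SREBP machinery, Insig1 was at 67.4, 60.7 and 61.6 CPM in P1 at day 5, at 16.8, 21.5 and 22.4 at day 12 and at 20.4, 7.74 and 15.1 at day 49. Insig1 is itself an SREBP target, and its level fell by day 12 (-1.52 ± 0.28 (SE), adjusted p = 0.00148) and stayed below that of day 5 at day 49 (-2.14 ± 0.29 (SE), adjusted p = 1.82e-05). Srebf2, which encodes the SREBP of sterol synthesis, was at 259, 220 and 206 CPM at day 5, at 97.1, 67.4 and 70 at day 12 and at 131, 118 and 142 at day 49. Its lowest libraries were those of day 12 (-1.43 ± 0.25 (SE), adjusted p = 0.00156), the group that stood apart in genes detected, and the call at day 49 (-0.82 ± 0.25 (SE), adjusted p = 0.0389) was lost on leaving out any 1 library. Insig2 went the other way at day 12, from 31.6 ± 0.944 to 50.3 ± 10.4 CPM (0.79 ± 0.19 (SE), adjusted p = 0.00868). Scap, Mbtps1 and Mbtps2 were called in neither age step of P1.

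Of the other targets, Tmem97, a membrane protein that binds Npc1, was at 40.6, 38.8 and 43.6 CPM in P1 at day 5, at 29.3, 22.9 and 26.8 at day 12 and at 10.3, 11.4 and 12.3 at day 49. The ages did not overlap (-1.86 ± 0.28 (SE), adjusted p = 7.67e-05). Stard4, a soluble sterol carrier, fell by 1.28 on the log2 scale. Fads2, a fatty acid desaturase, was called lower, from 7.83 ± 3.91 CPM at day 5 to 0.556 ± 0.574 at day 49, levels too low for a useful fold. Npc1 was the member that rose, with 28.1, 24.8 and 27.6 CPM at day 5, 28.6, 27.6 and 27.4 at day 12 and 40.8, 41.7 and 39.4 at day 49 (0.59 ± 0.17 (SE), adjusted p = 0.0241). Its day 49 libraries lay above all others of P1, although the call was kept in 1 of 6 fits that left out a library. Npc2, the soluble partner of Npc1 in the lysosome, was at 369, 389 and 442 CPM at day 5, at 516, 416 and 460 at day 12 and at 438, 429 and 429 at day 49. It was called higher at day 12 (0.34 ± 0.11 (SE), adjusted p = 0.0318) with overlapping groups, and Acly (ATP citrate lyase) and Fads1 were not called at day 49 against day 5. The Npc2 call was lost without replicate 1 or 2 of day 5 and without any 1 library of day 12.

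The intermediate steps of P1 divided the members. From day 5 to day 12, 8 members fell and 2 rose (Insig2 and Npc2), when 8.19% of all genes fell and 10.2% rose, with a median of -0.45 over the members and 0.00 over all genes. From day 12 to day 49, 11 fell and 0 rose, when 13.5% of all genes fell and 10.2% rose, with medians of -0.49 and -0.05. Sqle, Cyp51, Hmgcs1 and Msmo1 fell in both steps. Insig1, Srebf2, Lbr and Mvd were called lower in the earlier step alone, and Tmem97, Acat2, Lss, Nsdhl, Sc5d, Ebp and Acly in the later step alone. The difference between the steps was not tested. The later count was 5 without replicate 1 of P1 at day 12, 7 without replicate 1 or without replicate 2 of P1 at day 49, and 6 without its replicate 3.

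The same question in P2, the CD25-Foxp3+ progenitors, gave a like picture in separate libraries. At day 49 against day 5, 18 of 33 members fell and 2 rose, when 11.1% of all genes fell and 14.7% rose. The median was -0.79 over the members and 0.08 over all genes. By role, 4 of 8 early genes, 9 of 12 genes from squalene to cholesterol, 2 of 6 machinery genes and 3 of 7 other genes fell. Of the 18 members that fell in P2, 16 were among the 20 that fell in P1 (88.9% of the P2 list and 80% of the P1 list). The P1 and P2 libraries are separate, but the like overlap over all genes was not counted. Of the 20 calls in P2, 12 were kept whichever library was left out. The count was 10 when both replicates 2 and 3 of P2 at day 49 were left out, which leaves that group with 1 library whose spread is taken from the other groups, and 8 when the compared groups were fitted alone.

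Sqle in P2 was at 42.7, 31.7 and 37.8 CPM at day 5, at 11.4, 8.13 and 5.22 at day 12 and at 2.86, 2.07 and 5.03 at day 49. No ages overlapped (-3.28 ± 0.31 (SE), adjusted p = 9.08e-08). Hmgcs1 was at 89.2, 71.5 and 73.4, at 51, 47.9 and 52 and at 31.2, 29.9 and 26.4 CPM at the 3 ages (-1.29 ± 0.14 (SE), adjusted p = 1.05e-06), and Cyp51 at 61.1, 60.3 and 56.8, at 31.8, 40.2 and 25.7 and at 14.6, 30.5 and 16.9 CPM (-1.39 ± 0.22 (SE), adjusted p = 0.000102). For Hmgcs1 the ages did not overlap, and for Cyp51 the highest library of day 49 lay within the range of day 12. Tmem97 was at 16.9, 12.2 and 13.5, at 7.83, 5.35 and 8.36 and at 4.58, 1.18 and 1.41 CPM (-2.48 ± 0.34 (SE), adjusted p = 1.9e-05). Insig1 was at 27.5, 26.9 and 23.1, at 25.7, 12.4 and 16.5 and at 8.59, 5.63 and 6.24 CPM (-1.79 ± 0.31 (SE), adjusted p = 0.00027). Lbr was at 482, 471 and 436, at 281, 265 and 271 and at 218, 185 and 125 CPM (-1.28 ± 0.12 (SE), adjusted p = 1.47e-07). In all 3 genes the libraries of day 49 lay below those of day 5.

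Srebf2 in P2 was at 172, 179 and 169 CPM at day 5, at 128, 146 and 148 at day 12 and at 129, 67.2 and 32.4 at day 49. It was called lower at day 49 (-1.1 ± 0.26 (SE), adjusted p = 0.00478). The low values were those of replicates 2 and 3, the libraries with more genes detected and macrophage sums of 114 and 151 CPM, while replicate 1 was at the level of day 12; the part of those features in the change was not tested. Leaving out both leaves 1 library of P2 at day 49, which is then assumed to vary like the other groups. Under that assumption Srebf2 was not called (log2 fold change -0.44), while Cyp51 (-2.04), Hmgcs1 (-1.34) and Lbr (-1.11) were. Idi1 was at 3.3, 5.98 and 2.18 CPM at day 5, at 1.34, 1.5 and 1.04 at day 12 and at 0.859, 0.296 and 0.403 at day 49, and Fdps at 15.1, 14.7 and 19.4, at 8.28, 11.8 and 13.4 and at 12.3, 9.78 and 14.5 CPM. Idi1 was called lower at day 49 (-2.71 ± 0.67 (SE), adjusted p = 0.00602) at low levels, and Fdps was not called (-0.28 ± 0.28 (SE), adjusted p = 0.506).

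The members that rose in P2 were Insig2, from 32.2 ± 1.46 to 58.1 ± 9.71 CPM (1.0 ± 0.19 (SE), adjusted p = 0.000726), and Ggps1, from 51.8 ± 6.55 to 69.7 ± 18.1 CPM with overlapping groups (0.59 ± 0.18 (SE), adjusted p = 0.0237). Without both replicates 2 and 3 of day 49 neither was called, with log2 fold changes of 0.52 and 0.02. Npc1 was at 37.8, 33.1 and 41.2 CPM at day 5, at 53, 57.5 and 45.5 at day 12 and at 49.5, 34.1 and 36.8 at day 49. Npc2 was at 623, 635 and 650, at 554, 550 and 579 and at 533, 536 and 649 CPM. Neither lysosomal gene was called in an age step of P2, and the ages overlapped in Npc1 between day 5 and day 49.

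By step, 5 members fell and 0 rose in P2 from day 5 to day 12, when 3.36% of all genes fell and 1.82% rose, with a median of -0.53 over the members and 0.00 over all genes. The 5 were Sqle, Tmem97, Cyp51, Lbr and Hmgcs1. The count was 3 without replicate 1 or without replicate 3 of P2 at day 12, and 12 when the compared groups were fitted alone. From day 12 to day 49, 6 fell and 1 (Ggps1) rose, when 5.98% of all genes fell and 8.96% rose, with medians of -0.22 and 0.06. The 6 were Tmem97, Insig1, Sqle, Sc5d, Hmgcs1 and Lbr. Over all genes, fitting the compared groups alone gave 79 calls in place of 2196. The member count of 7 was the least stable of the thymic counts. It was 0 when the compared groups were fitted alone, 3 without replicate 1 of P2 at day 12, 4 without its replicate 2, 12 without replicate 1 of P2 at day 49 and 2 without both of its replicates 2 and 3.

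Whether the change from day 5 to day 49 differed between P2 and P1 was tested for each gene by the interaction. No member was called (0 of 33 by edgeR, when 0.374% of all genes were called in either direction). Unadjusted p was below 0.05 for 6 members, DESeq2 called 1 (Hmgcs1), and edgeR called 6 without replicate 1 of P2 at day 49 (Cyp51, Fads2, Hmgcs1, Mbtps2, Msmo1 and Srebf2). Over all genes, unadjusted p was below 0.05 for 2108 of 14696. DESeq2 called 303 of 14694 genes, and edgeR without that replicate called 1243 of 16605. The lowest adjusted p was that of Hmgcs1, whose change was smaller in P2 by 0.74 ± 0.20 (SE), adjusted p = 0.1. A difference in the size of the age change between the populations was therefore not detected for the members with these libraries.

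**Figure D3:**
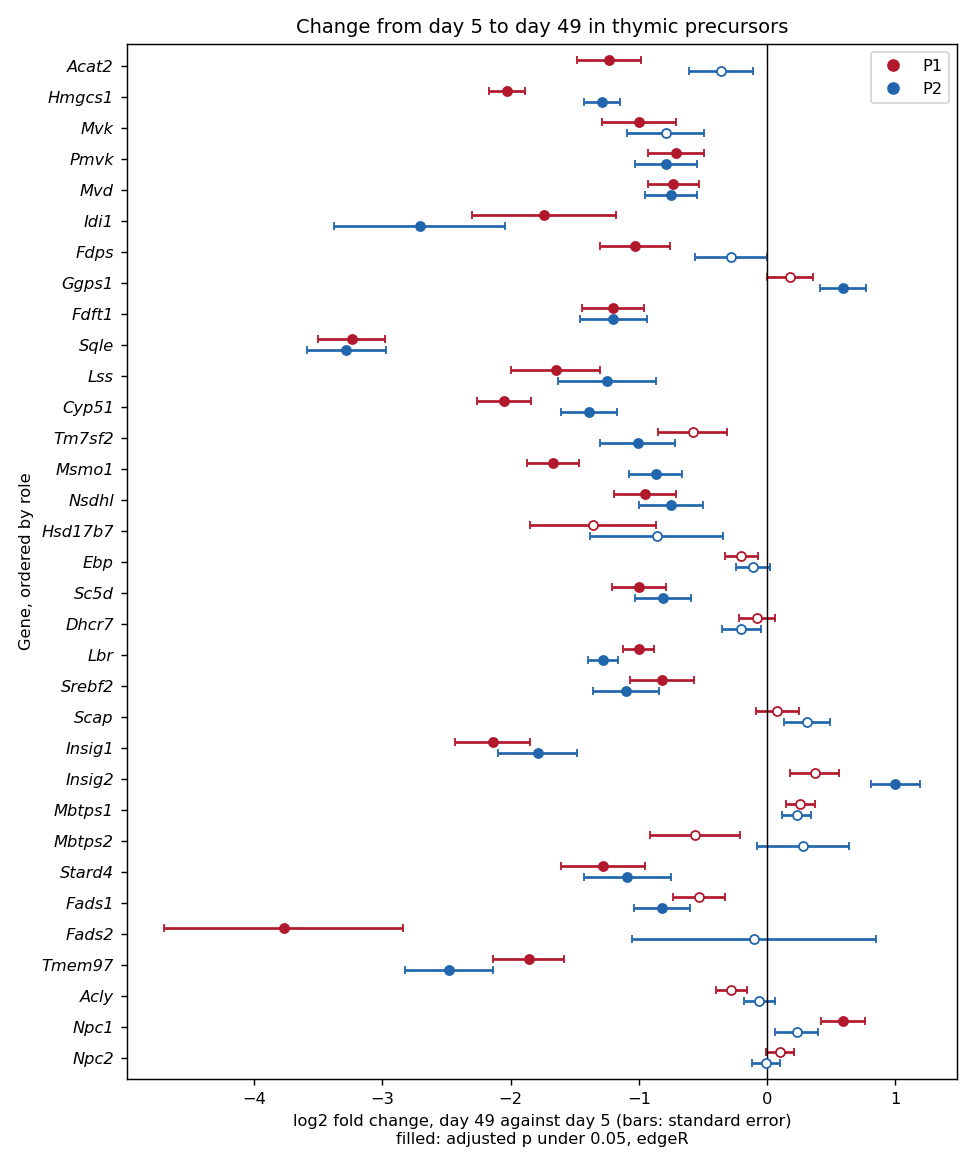
For each member the log2 fold change from day 5 to day 49 is plotted with its SE, red for P1 and blue for P2, and filled where the adjusted p is below 0.05. Sqle lies far below 0 in both populations (-3.24 and -3.28), and Npc1, Insig2 and Ggps1 lie on the other side of 0 where they were called.

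The comparison of P2 with P1 at each age asks how the Foxp3+ and the CD25+ progenitor states differ. A set of 6 members, Sqle, Cyp51 and Hmgcs1 among them, was called lower in P2 at every age, and Mbtps1 was called higher at every age. How many of all genes were called alike at every age was not counted. The Mbtps1 calls at day 5 and day 49 were not steady when a library was left out. At day 5, 13 members were lower in P2 and 3 higher, when 8.56% of all genes were lower and 6.8% higher, with a median of -0.49 over the members and 0.00 over all genes. At day 12, 18 were lower and 4 higher (23.7% and 17.6% of all genes), with medians of -0.53 and -0.08. At day 49, 8 were lower and 4 higher (12.9% and 16.5% of all genes), with medians of -0.30 and 0.10. Leaving out a library, 8, 14 and 6 of these calls were always kept. The count of 16 at day 5 was 10 without replicate 1 or without replicate 2 of P1, 8 without replicate 1 or without replicate 2 of P2 and 10 without replicate 3 of P2. The count of 12 at day 49 was 7 without replicate 1 of P1, and 3 when the compared groups were fitted alone. The same P1 libraries of day 5 are the base of the age comparison in P1, and those of P2 of the age comparison in P2, so these comparisons are not independent of it.

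Lower in P2 at all 3 ages were Hmgcs1, Fdft1, Sqle, Cyp51, Fads1 and Tmem97. The Fdft1 call at day 5 was lost without replicate 1 or 3 of P1 or replicate 1 or 2 of P2. At day 49 the Fdft1 call was lost without replicate 1 or 3 of P1 or replicate 2 or 3 of P2. The values of Sqle in every library given above show P2 below P1 at each age without overlap, with log2 fold changes of -1.6 ± 0.24 (SE), adjusted p = 5.1e-05 at day 5, -2.73 ± 0.27 (SE), adjusted p = 1.19e-07 at day 12 and -1.64 ± 0.32 (SE), adjusted p = 0.000739 at day 49. Cyp51 differed by -1.59 ± 0.20 (SE), adjusted p = 8.4e-06 at day 5 and by -0.92 ± 0.22 (SE), adjusted p = 0.00407 at day 49. Fads1, the partner desaturase of Fads2, was at 68, 57.5 and 47.8 CPM in P1 and at 25.8, 19.6 and 21.2 in P2 at day 5 (-1.34 ± 0.21 (SE), adjusted p = 7.08e-05), and at 35.7, 34.8 and 50 and 13.7, 12.4 and 8.66 at day 49 (-1.63 ± 0.22 (SE), adjusted p = 1.27e-05). It lay lower in every P2 library at both ages. Tmem97 differed by -2.12 ± 0.35 (SE), adjusted p = 0.000112 at day 49. Insig1 was lower at day 5 (-1.26 ± 0.27 (SE), adjusted p = 0.00246) and at day 49 (-0.91 ± 0.32 (SE), adjusted p = 0.0358), but at day 12 the 2 populations overlapped and no call was made. The Insig1 call at day 49 was lost without replicate 1 or 3 of P1 or replicate 2 or 3 of P2.

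Mbtps1 was higher in P2 at all 3 ages, by 0.36, 0.45 and 0.33 on the log2 scale. Its call at day 5 was lost without replicate 2 or 3 of P1 and without any 1 library of P2. At day 49 it was lost without any 1 library of P1 and without replicate 1 or 2 of P2. Both of these calls were also lost with no filter on low counts. Npc2 was at 369, 389 and 442 CPM in P1 and at 623, 635 and 650 in P2 at day 5, without overlap (0.71 ± 0.11 (SE), adjusted p = 5.69e-05), and was again higher at day 49 (0.59 ± 0.11 (SE), adjusted p = 0.000303). Npc1 was higher in P2 at day 5 (0.51 ± 0.17 (SE), adjusted p = 0.0403) and day 12 (0.77 ± 0.17 (SE), adjusted p = 0.00102). The Npc1 call at day 5 was lost on leaving out any 1 library of the compared groups. At day 12 Lbr and Srebf2 were also higher in P2 (0.72 ± 0.25 (SE), adjusted p = 0.03 for Srebf2), where P1 had its lowest Srebf2 libraries and P2 had 128, 146 and 148 CPM. The Srebf2 call was lost without replicate 2 or 3 of either population, and the Lbr call without replicate 2 of P1. At day 49 Insig2 (0.70 ± 0.19 (SE), adjusted p = 0.00966) and Ggps1 (0.51 ± 0.18 (SE), adjusted p = 0.0415) were higher. With replicate 1 as the lone P2 library of day 49, neither was called, at 0.21 for Insig2 and -0.07 for Ggps1, the latter on the other side of 0. The Insig2 call was also lost without replicate 3 of P1 or without replicate 3 of P2, and the Ggps1 call was kept in 1 of 6 fits that left out a library. Mvd, Tm7sf2, Sc5d, Mbtps2 and Stard4 were called at no age.

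Neighbouring pathways in the thymus were read from lists chosen with earlier results of these data known, so their counts are descriptions. Of 7 genes on the LXR list, which holds LXR targets and the genes of the receptors themselves, 4 rose and 0 fell from day 5 to day 49 in P1. Abca1 went from 1.25 ± 1.29 to 43.4 ± 4.68 CPM and Abcg1 from 70.7 ± 7.25 to 279 ± 27.4 CPM, both cholesterol exporters, and Mylip, which degrades lipoprotein receptors, from 33.5 ± 4.96 to 88.2 ± 8.28 CPM. In P2, 3 rose and 0 fell, with Abca1 from 4.47 ± 2.65 to 88 ± 23.3 CPM. Of 14 fatty acid synthesis genes tested, 1 fell in P1 (Elovl6), and in P2 2 rose and 1 (Fasn, fatty acid synthase) fell. Isoprenoid use (12 genes), the degradation and sensing of sterol enzymes in the endoplasmic reticulum (9) and cholesterol uptake and movement (12) each had at most 3 calls in a day 49 against day 5 comparison. The list counts are to be read beside the shares of all genes. These were 6.64% lower and 4.16% higher in P1, and 11.1% lower and 14.7% higher in P2. Of 18 cell cycle genes, all 18 fell in both populations, with medians of -2.35 in P1 and -3.20 in P2, and their mean log2 CPM went from 8.24 to 6.04 in P1 and from 7.63 to 4.24 in P2. In P2 against P1, cell cycle genes were lower for 7, 18 and 14 of 18 genes at the 3 ages. The part of cell division in the change of the sterol genes was not tested.

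In the periphery the question was how Treg of non-lymphoid tissues differ from splenic Treg, read separately in the PBS-labelled and DT-labelled libraries, which share no library. A small set of members was higher in tissue: Stard4 and Hsd17b7 in nearly every tissue, Cyp51, Mvk and Lbr in lung and liver, and Insig1 and Hmgcs1 most of all in liver. The other members were called in few tissues or in none. Not all of these calls were kept when a library was left out. The fit of all 32 peripheral libraries tested 17731 genes.

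In liver, 8 members were higher than in spleen and 1 lower in the PBS-labelled arm, when 9.15% of all genes were higher and 7.9% lower. In the DT-labelled arm 12 were higher and 0 lower, when 7.99% were higher and 5.06% lower. The medians over the members were 0.34 and 0.57, and over all genes -0.02 and 0.01. Called higher in both arms were 7: Hmgcs1, Mvk, Cyp51, Ebp, Lbr, Insig1 and Stard4, which is 87.5% of the PBS-labelled list and 58.3% of the DT-labelled list. The like overlap between arms over all genes was not counted, in liver or in the other tissues. The Ebp call was lost without replicate 2 or 3 of spleen or replicate 1 or 2 of liver in the PBS-labelled arm. In the DT-labelled arm the Ebp call was lost without replicate 4 or 6 of spleen or replicate 4 or 5 of liver. The PBS-labelled count was 5 without replicate 2 of liver. The DT-labelled count was 6 without replicate 6 of spleen and 7 without replicate 5 of liver.

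Insig1 was at 73.4, 61.9 and 34.1 CPM in PBS-labelled and 50.3, 39.1 and 23.7 in DT-labelled spleen, and at 102, 166 and 139 and 180, 216 and 174 in liver. Every liver library lay above every spleen library of its arm (1.31 ± 0.35 (SE), adjusted p = 0.00878 and 2.36 ± 0.36 (SE), adjusted p = 2.45e-05). The Insig1 call of the PBS-labelled arm was lost without replicate 3 of spleen or replicate 2 of liver. Cyp51 was at 76.3, 96.3 and 44.7 and 69, 80.5 and 44.6 CPM in spleen, and at 247, 221 and 187 and 247, 391 and 198 in liver (1.63 ± 0.33 (SE), adjusted p = 0.000738 and 2.13 ± 0.34 (SE), adjusted p = 3.54e-05). Hmgcs1 was at 65.2, 59.1 and 51.3 and 54.7, 60.1 and 36.8 CPM in spleen, and at 123, 146 and 131 and 149, 206 and 122 in liver (1.23 ± 0.32 (SE), adjusted p = 0.00765 and 1.68 ± 0.33 (SE), adjusted p = 0.000537). Neither gene overlapped between liver and spleen of an arm. The Hmgcs1 call of the PBS-labelled arm was lost without replicate 2 of liver. Lbr was at 289, 371 and 373 and 400, 389 and 394 CPM in spleen, and at 731, 730 and 673 and 688, 762 and 477 in liver (1.08 ± 0.16 (SE), adjusted p = 4.21e-06 and 0.73 ± 0.16 (SE), adjusted p = 0.00112). Srebf2 was at 114, 207 and 163 and 209, 193 and 213 CPM in spleen, and at 357, 269 and 275 and 273, 378 and 243 in liver. It was called in the PBS-labelled arm (0.92 ± 0.22 (SE), adjusted p = 0.00257) and not in the DT-labelled arm (0.57 ± 0.22 (SE), adjusted p = 0.0817). Sc5d, Msmo1, Pmvk, Hsd17b7 and Idi1 were called in the DT-labelled arm alone, and Ggps1 was the member called lower, in the PBS-labelled arm (-0.74 ± 0.25 (SE), adjusted p = 0.0379). That call was lost without replicate 1 of spleen, the library with low Foxp3 (adjusted p = 0.574 by edgeR), and without replicate 1 (0.0781) or replicate 3 (0.186) of liver. In the DT-labelled arm the Idi1 call was lost without any 1 library of spleen and without replicate 4 or 5 of liver. The Sc5d and Msmo1 calls of that arm were lost without replicate 6 of spleen or replicate 5 of liver, and the Pmvk call without replicate 6 of spleen. The difference between the arms was tested within liver only as DT against PBS, below.

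In lung, 5 members were higher than in spleen and 3 lower in the PBS-labelled arm, when 8.03% of all genes were higher and 7.79% lower. In the DT-labelled arm 9 were higher and 1 lower, when 8.3% were higher and 6.14% lower. The medians over the members were -0.09 and 0.25, and over all genes 0.04 and 0.01. All 5 of the PBS-labelled list (Mvk, Cyp51, Hsd17b7, Lbr and Stard4) were among the 9 of the DT-labelled list (55.6%). The PBS-labelled count of 8 was 5 without replicate 1 of lung, and the DT-labelled count of 10 was 6 without replicate 5 of lung or without replicate 5 of spleen.

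Mvk stood out in lung. It was at 24.9, 11.7 and 11.4 CPM in PBS-labelled and 17.9, 21 and 7.82 in DT-labelled spleen, and at 232, 41.9 and 230 and 229, 186 and 64.6 in lung. All 6 lung libraries lay above all 6 spleen libraries (3.44 ± 0.58 (SE), adjusted p = 0.000147 and 3.38 ± 0.58 (SE), adjusted p = 0.000192), and both calls were kept in 6 of 6 fits that left out a library. The lowest lung library of each arm, replicate 2 with 41.9 and replicate 6 with 64.6 CPM, was also the one with the most genes detected in its group (30834 and 25455). In liver Mvk was at 66.7, 45.6 and 34.4 and 61.8, 104 and 24.3 CPM, between spleen and lung, with calls of 1.66 ± 0.56 (SE), adjusted p = 0.0429 and 2.04 ± 0.57 (SE), adjusted p = 0.016. The PBS-labelled liver call was kept in none of 6 fits that left out a library. The DT-labelled liver call was lost without replicate 4 or 6 of spleen or replicate 5 of liver. In ear skin and VAT Mvk was at 7.71 to 20.8 CPM, within the range of spleen or just below it. Mmab, a gene of cobalamin metabolism whose start lies 208 bases from that of Mvk on the opposite strand, was examined after its values were seen. It was at 38.9 ± 17.9 and 36.4 ± 10.9 CPM in lung and at 23.4 ± 4.64 and 17.5 ± 2.18 CPM in spleen. Its log2 fold change was 0.79 in the PBS-labelled arm (adjusted p = 0.123) and 1.08 in the DT-labelled arm (adjusted p = 0.0319), by edgeR.

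Cyp51 in lung was at 190, 111 and 177 and 202, 215 and 144 CPM, above spleen in both arms (1.19 ± 0.33 (SE), adjusted p = 0.0115 and 1.56 ± 0.33 (SE), adjusted p = 0.00128). These calls were kept in 2 of 6 fits that left out a library in the PBS-labelled arm, and in 6 of 6 in the DT-labelled arm. Lbr was at 603, 726 and 503 and 616, 555 and 648 CPM (0.87 ± 0.16 (SE), adjusted p = 0.000121 and 0.64 ± 0.16 (SE), adjusted p = 0.00383). Dhcr7, which makes cholesterol in the last step, was the member lower in both arms, at 26.2, 21.1 and 32.3 and 26.4, 26.6 and 37.5 CPM in lung against 58.9, 68.9 and 44.5 and 74.6, 51.7 and 50.3 in spleen. The groups did not overlap (-1.06 ± 0.24 (SE), adjusted p = 0.00164 and -0.94 ± 0.24 (SE), adjusted p = 0.00553). The Dhcr7 call of the DT-labelled arm was lost without replicate 4 of spleen or replicate 4 of lung. Insig2 (-1.16 ± 0.26 (SE), adjusted p = 0.00131) and Ggps1 (-0.85 ± 0.25 (SE), adjusted p = 0.017) were lower in the PBS-labelled arm. The Ggps1 call was lost without replicate 1 of spleen (adjusted p = 0.394 by edgeR) and without replicate 2 of lung (0.0994). In the DT-labelled arm Ebp, Pmvk, Hmgcs1 and Insig1 were also higher, by 0.60, 0.90, 1.0 and 1.27 on the log2 scale. Each of these calls was lost without replicate 5 or 6 of spleen or without replicate 5 of lung. Ebp was also lost without replicate 4 of spleen or 6 of lung, Pmvk without replicate 4 or 6 of lung and Hmgcs1 without replicate 4 of spleen.

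In VAT, 4 members were higher than in spleen and 0 lower in the PBS-labelled arm, when 8.55% of all genes were higher and 6.27% lower. In the DT-labelled arm 5 were higher and 0 lower, when 5.68% were higher and 3.12% lower. The medians over the members were 0.28 and 0.35, and over all genes -0.06 and 0.03. Higher in both arms were Lss, Hsd17b7 and Stard4. Lss was at 21.8, 22.3 and 22.5 and 29.2, 33.5 and 14.9 CPM in spleen, and at 34.4, 62.7, 49.2 and 66.9 and 30.4, 64.7, 61.6 and 56.7 in VAT. The arms differed in overlap, with none in the PBS-labelled arm (1.29 ± 0.35 (SE), adjusted p = 0.00792) and some in the DT-labelled arm (1.07 ± 0.34 (SE), adjusted p = 0.0437). These calls were kept in 6 of 7 fits that left out a library, the exception being replicate 1 of spleen, and in 2 of 7 in that order. Srebf2 was at 313, 346, 292 and 257 and 235, 310, 385 and 227 CPM in VAT, and was called in the PBS-labelled arm (0.92 ± 0.21 (SE), adjusted p = 0.00149), in every fit that left out a library. Hmgcs1 and Insig1 were called in the DT-labelled arm, with groups that overlapped. The DT-labelled count of 5 was 1 without replicate 6 of spleen or without replicate 6 of VAT, 2 without replicate 7 of VAT and 3 without replicate 4 of spleen. Replicate 7 of DT-labelled VAT had a sum of 555 CPM over fibroblast markers and 115 CPM over macrophage markers, and the part of other cells was not tested.

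In ear skin, 2 members were higher than in spleen and 1 lower in the PBS-labelled arm, when 10.9% of all genes were higher and 12.6% lower. In the DT-labelled arm 4 were higher and 4 lower, when 10.4% were higher and 11.7% lower. The medians over the members were 0.04 and 0.14, beside 0.14 and 0.13 over all genes, so these counts stood near those of all genes. Under size factors by relative log expression the higher share of calls over all genes in the DT-labelled arm went from 47.1% to 60.7%, and 7 members were higher and 4 lower. Hsd17b7 was the member higher in both arms. Fads1, Mbtps1, Acly and Lbr were lower in the DT-labelled arm, by 1.58, 0.80, 0.77 and 0.69 as log2 decreases, each in all 6 fits that left out a library. Npc2 was lower in the PBS-labelled arm, at 336, 299 and 320 CPM against 791, 442 and 420 in spleen (-0.65 ± 0.16 (SE), adjusted p = 0.00341). That call was lost without replicate 1 of spleen, its highest library (adjusted p = 0.0964 by edgeR). The PBS-labelled count of 3 was 5 without replicate 3 of spleen and 1 when the compared groups were fitted alone, and the DT-labelled count of 8 was 13 when fitted alone.

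Stard4 and Hsd17b7 were the members most often above spleen, each called in 7 of 8 comparisons, and 4 comparisons of an arm share its spleen libraries. Stard4 was at 33.6, 28 and 21 and 38.8, 38.1 and 20.1 CPM in spleen, at 50.6, 44.9 and 49.8 and 57.8, 59.3 and 54.4 in lung, at 65.2, 64.7 and 62.9 and 83.1, 83.7 and 57.9 in liver and at 59.1, 47.4, 62.3 and 52.1 and 58, 69.3, 57.8 and 41.2 in VAT. All lung, liver and VAT libraries lay above the spleen libraries of their arm. Its log2 fold change was largest in liver (1.27 ± 0.24 (SE), adjusted p = 0.000175 and 1.24 ± 0.24 (SE), adjusted p = 0.000231), and it was not called in DT-labelled ear skin (0.51 ± 0.24 (SE), adjusted p = 0.117). The Stard4 call in PBS-labelled ear skin was lost without replicate 2 or 3 of spleen or replicate 1 of ear skin. In PBS-labelled lung it was lost without replicate 3 of spleen or replicate 1 of lung. Without replicate 6 of spleen its calls in DT-labelled lung and VAT were lost, the latter also without replicate 6 of VAT. Hsd17b7, which reduces a keto group in sterol and in steroid synthesis, was at 9.22, 9.59 and 5.2 and 9.24, 6.79 and 5.21 CPM in spleen. It was at 21.3, 25 and 15.2 and 27.4, 22.8 and 12.3 CPM in lung, at 25.3, 22.9 and 21.4 and 15, 20.7 and 31.8 in ear skin and at 19.5, 49.3, 25.8 and 15.7 and 15.8, 40.2, 27 and 16.3 in VAT. Spleen was the lowest in every case, with log2 fold changes of 1.8 ± 0.38 (SE), adjusted p = 0.000668 and 1.83 ± 0.38 (SE), adjusted p = 0.00112 in VAT, and PBS-labelled liver was the comparison without a call (0.75 ± 0.40 (SE), adjusted p = 0.221). In PBS-labelled lung the Hsd17b7 call was lost without replicate 3 of spleen or without replicate 1 or 2 of lung. Called in no tissue against spleen in either arm were 12 members, Acat2, Mvd, Fdps, Fdft1, Sqle, Tm7sf2, Nsdhl, Scap, Mbtps2, Fads2, Tmem97 and Npc1. Sqle, which varied widely in the thymus, was at 46.9 ± 31.1 and 32.1 ± 15.4 CPM in spleen, at 84.2 ± 32.5 and 77.5 ± 31.1 in VAT and between 27.4 and 50.6 CPM on average in the other tissues. It was not called in VAT (0.89 ± 0.42 (SE), adjusted p = 0.172 and 1.3 ± 0.43 (SE), adjusted p = 0.0583), where VAT and spleen overlapped in the PBS-labelled arm and not in the DT-labelled arm.

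**Figure D4:**
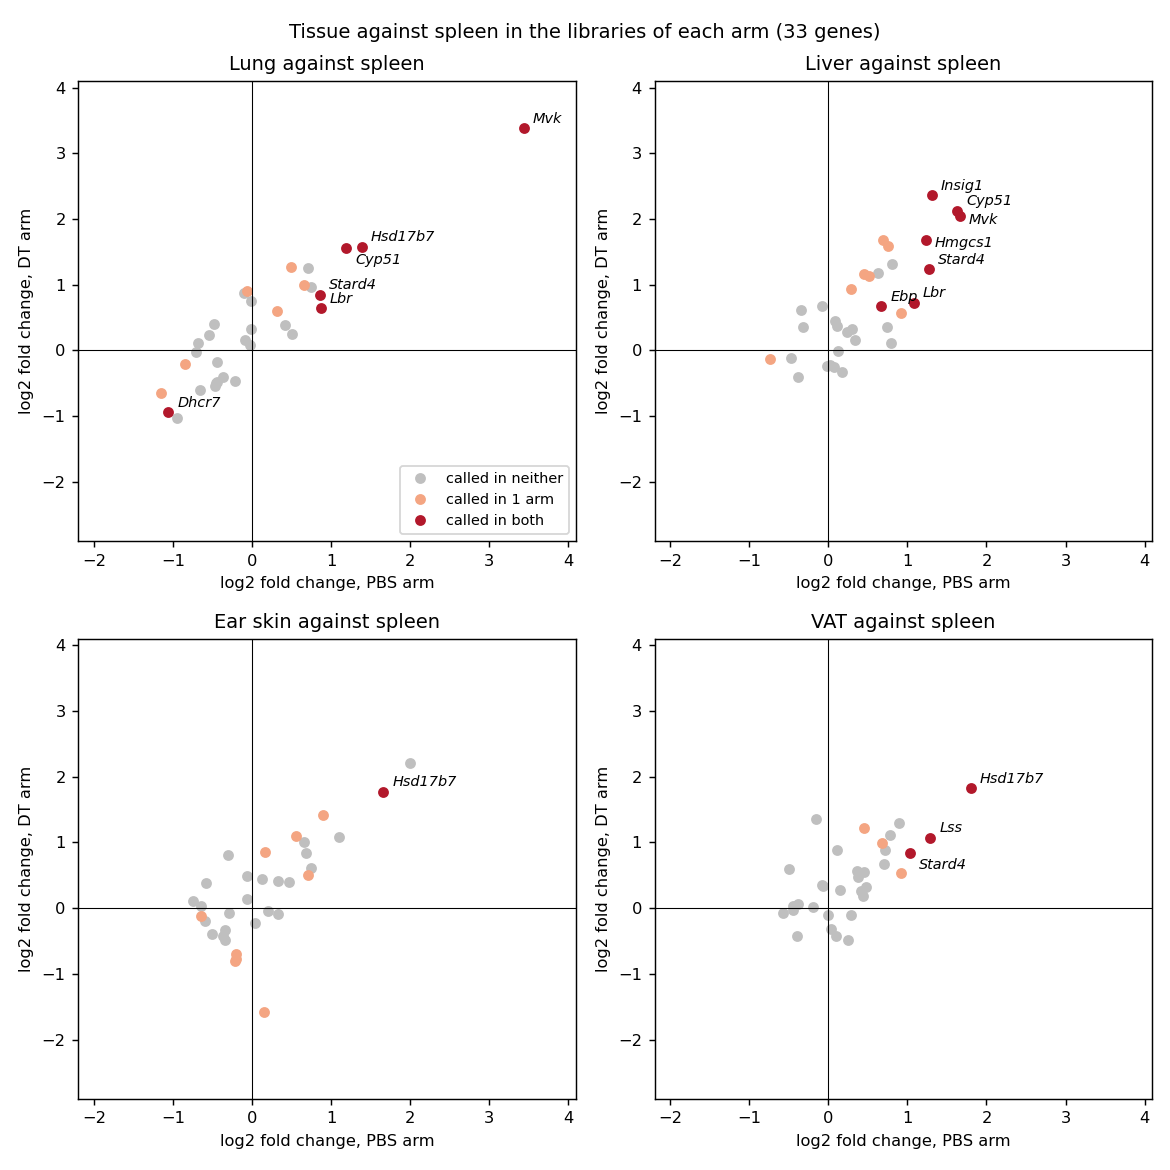
Each panel plots, for a tissue, the log2 fold change of every member against spleen in the PBS-labelled arm (horizontal) and in the DT-labelled arm (vertical); grey points were called in neither arm, orange points in 1 arm and red named points in both. Mvk lies farthest out in lung (3.44 and 3.38), and Stard4 is named in lung, liver and VAT.

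**Figure D5:**
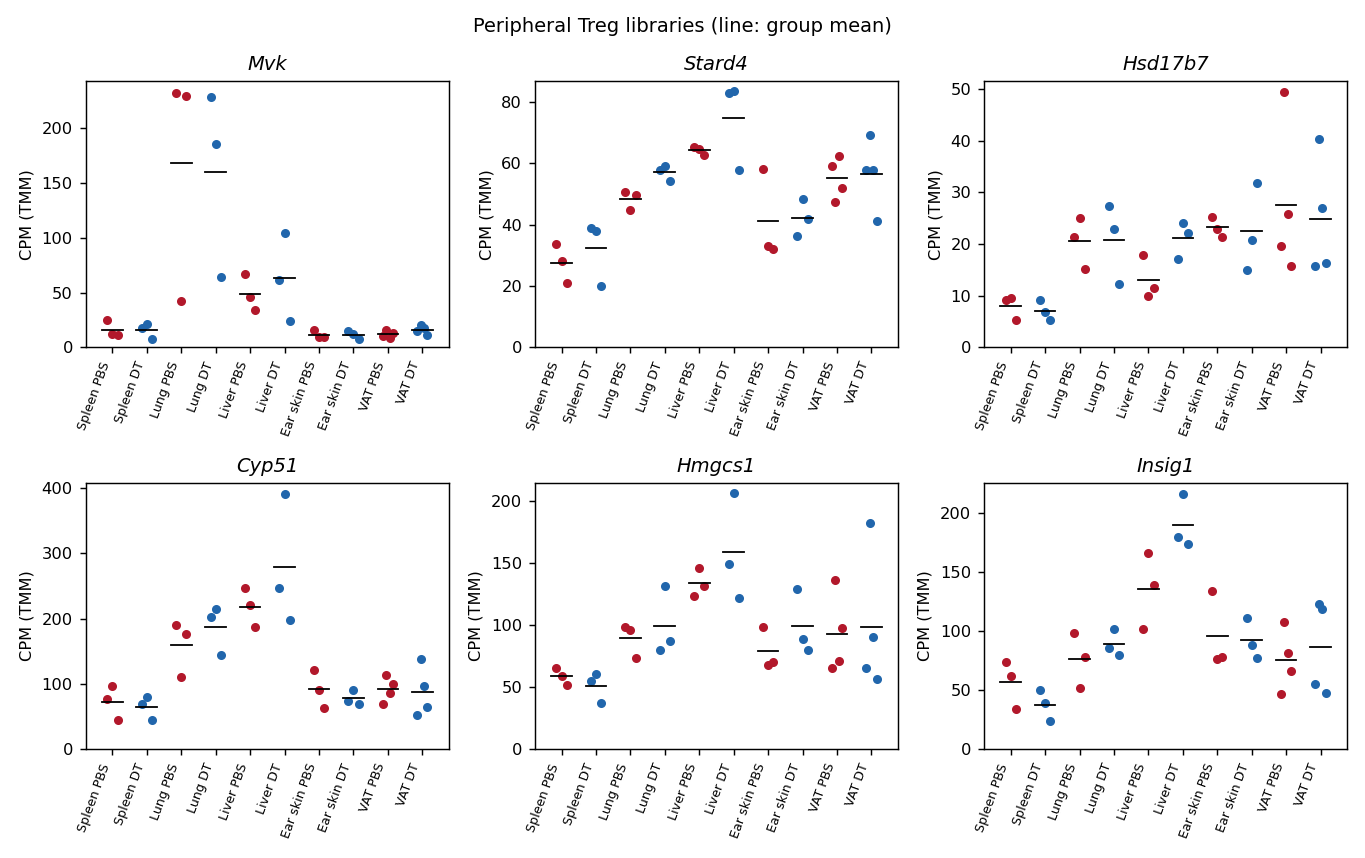
Levels in CPM of members named in the text are plotted for each peripheral library by tissue, red for PBS-labelled and blue for DT-labelled libraries. The Mvk points of lung spread from 41.9 to 232 CPM, all above the spleen points, which lie between 7.82 and 24.9 CPM.

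VAT and ear skin were compared directly in the PBS-labelled arm. Here 5 members were higher in VAT and 0 lower, when 8.03% of all genes were higher and 5.78% lower, with medians of 0.14 over the members and -0.09 over all genes. The 5 were Sqle (1.47 ± 0.43 (SE), adjusted p = 0.0243), Sc5d (1.01 ± 0.24 (SE), adjusted p = 0.00441), Acly (0.64 ± 0.16 (SE), adjusted p = 0.00519), Lbr (0.62 ± 0.15 (SE), adjusted p = 0.00417) and Npc2 (0.45 ± 0.16 (SE), adjusted p = 0.0461). The Npc2 call was lost on leaving out any 1 of the 7 libraries (adjusted p of 0.069 to 0.132 by edgeR). Sqle was at 74.3, 132, 60 and 70.3 CPM in VAT and at 48.6, 19.2 and 16.7 in ear skin, without overlap. Its call was lost without replicate 2 or 3 of ear skin or replicate 2 of VAT. The Acly call was lost without replicate 2 of ear skin. The count was 2 without replicate 2 of ear skin, 3 without its replicate 3 and 3 without replicate 2 of VAT. Under size factors by relative log expression it was 4, and the higher share of calls over all genes went from 58.2% to 45.5%.

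DT-labelled and PBS-labelled libraries were compared within each tissue. Whether the Treg of either arm had regrown after depletion cannot be told from these sources. No member was called in any tissue by edgeR, 0 of 32 tested each time (Fads2 was too low to test), and DESeq2 also called 0. Over all genes 0.0% were called in spleen, 0.0% in lung, 0.0% in liver, 0.427% in ear skin and 0.116% in VAT. Unadjusted p was below 0.05 for 1 member in spleen, 4 in lung, 1 in liver, 2 in ear skin and 1 in VAT. Over all genes it was below 0.05 for 349 of 12453 in spleen, 413 of 12046 in lung and 519 of 11962 in liver. The like counts were 1165 of 12653 in ear skin and 942 of 12067 in VAT. The medians over the members were -0.08, 0.16, 0.12, 0.05 and 0.04 in that order. As examples, Insig1 in liver differed by 0.47 ± 0.19 (SE), adjusted p = 0.999, Hmgcs1 in VAT by 0.13 ± 0.40 (SE), adjusted p = 0.975 and Mvk in lung by -0.07 ± 0.62 (SE), adjusted p = 1.0. A p that missed the threshold does not show that the arms were alike, and the SE of Mvk in lung shows how wide the error of a single gene was.

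Among the neighbouring pathways, fatty acid synthesis genes were counted in each tissue, to be read against the shares of all genes given above for the same comparison. Of 16 tested, 5 were higher and 0 lower in PBS-labelled lung, with Acacb (an acetyl-CoA carboxylase) at 21.6 ± 7.92 against 1.87 ± 0.541 CPM in spleen, Elovl5 (a fatty acid elongase) at 955 ± 221 against 233 ± 72.3 CPM and Elovl6 at 105 ± 24 against 21.2 ± 8.04 CPM. The counts of higher and lower were 5 and 0 in DT-labelled lung, 5 and 0 and 3 and 0 in the liver arms, 7 and 0 and 1 and 0 in the VAT arms, and 6 and 1 and 3 and 1 in the ear skin arms. The 1 gene higher in DT-labelled VAT stood near the 5.68% of all genes called higher there. Cell cycle genes were higher than in spleen for 14 and 15 of 18 in the lung arms, 16 and 6 in the liver arms, 10 and 1 in the ear skin arms and 0 and 0 in the VAT arms. The mean log2 CPM of the cell cycle list was 6.66 and 6.73 in lung and 6.87 and 6.53 in liver, against 4.68 and 4.86 in spleen. It was 6.4 and 5.7 in ear skin and 5.6 and 5.61 in VAT, also above spleen on average. Liver and lung libraries also held the hepatocyte-list gene Trf (transferrin) at 157 to 408 and 96.1 to 298 CPM against 3.38 to 8.59 in spleen, while the other hepatocyte markers together reached 7.11 to 22.8 CPM in liver and 0 to 5.49 in lung. VAT had sums of 29.4 to 168 CPM over mesothelial markers against 5.17 to 9.7 in spleen. The part of cell division and of other cells in the member values was not tested.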

How the data were processed

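For the 50 RNA-seq libraries the submitters' processing notes name STAR 2.7.3a as the aligner, featureCounts as the counter and mm10 as the build. The authors deposited raw read counts per gene symbol, with no normalisation. Which annotation was counted, and whether by strand, is not given in the sources used here, so overlapping genes may share reads. Groups and replicate numbers were taken from the labels. No 2 libraries of a group agreed within sampling noise (chi-square over its degrees of freedom, 3.61 to 66.5), so each was used as a sample.

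Tests on the counts used edgeR 4.0.16 under R 4.3.3 (quasi-likelihood F test, two-sided, TMM normalisation, filterByExpr with a minimum count of 10 and a minimum total of 15, robust dispersions). P-values were adjusted by Benjamini-Hochberg over all genes tested, with a threshold of 0.05. The 18 thymus libraries were fitted together, the 32 peripheral libraries together, and DT against PBS within each tissue. SEs were derived by dividing the absolute log2 fold change by the root of the F statistic. Levels are TMM-normalised CPM over all 50 libraries, and scores use log2 CPM with a prior count of 2. The fits were tested on simulated data. Alternatives were DESeq2 1.42.0, relative log expression size factors, no filter on low counts, the compared groups alone, a replicate block and leaving out libraries. RefSeq promoter windows (GRCm38.p6) were matched by symbol, and positions were taken from the mm10 annotation.

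All members may be named. Values in every library are given for Sqle, Hmgcs1, Idi1, Cyp51, Fdps, Insig1, Srebf2, Lbr, Npc1 and Npc2 where a result turns on them, and for up to 6 called members per comparison. Genes outside the module are named from pathway lists where called and reaching a group mean of 10 CPM, at most 4 per list and comparison. The members and the lists were chosen with earlier results of these data known. Pathway lists covered fatty acid synthesis, isoprenoid use, sterol-regulated degradation and sensing, cholesterol uptake and movement, LXR and its targets, and the cell cycle. Marker lists covered other cell types.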

Additional observations from a re-analysis of the deposited data

Results flagged for a closer look

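In the VAT groups, the only ones with 4 libraries, the highest and lowest library of each member were compared with the others by Dixon's criterion at the 95% level (66 gene and group tests). It singled out 4 cases, and chance gives about 1 in 20. In PBS-labelled VAT, Ggps1 (geranylgeranyl diphosphate synthase) was at 78.6 CPM in replicate 1 against 54.1 to 57.7 in the others. Ebp (a sterol isomerase) was at 122 CPM in the same library against 103 to 105. Npc1 (lysosomal cholesterol export) was at 46.9 CPM in replicate 3 against 27.7 to 30.1. In DT-labelled VAT, Lbr (a sterol reductase) was at 386 CPM in replicate 7 against 480 to 495, and this is the library with fibroblast and macrophage marker sums of 555 and 115 CPM. None of these 4 genes was called in VAT against spleen in either arm.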

How the results depend on the processing

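Directions were steady and counts were not. Of 188 member calls, checked 2120 times under other settings, 1 changed sign (Ggps1 in P2 against P1 at day 49), and 98 were kept whichever library was left out. Fitting the compared groups alone gave 12 calls in place of 5 (P2, day 12 against 5), 0 in place of 7 (P2, day 49 against 12), 8 in place of 20 (P2, day 49 against 5), 3 in place of 12 (P2 against P1, day 49), 1 in place of 3 (PBS-labelled ear skin) and 13 in place of 8 (DT-labelled ear skin). Without a filter on low counts there were 11 calls for P2 from day 12 to 49 and 5 for PBS-labelled ear skin, which had 5 with DESeq2 and 5 with relative log expression size factors. DESeq2 called 1 member in the interaction. Without both replicates 2 and 3 of P2 at day 49, there were 2 calls from day 12 and 10 from day 5. With the compared groups alone, the calls over all genes moved in the same direction. In P2 they were 1908 in place of 762 (day 12 against 5), 79 in place of 2196 (day 49 against 12) and 1093 in place of 3788 (day 49 against 5). For P2 against P1 at day 49 they were 1220 in place of 4318. In ear skin they were 2263 in place of 4169 (PBS-labelled) and 4365 in place of 3910 (DT-labelled). The cause of these shifts was not tested.

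Leaving out 1 library gave 5 to 8 calls for P1 from day 12 to 49, 12 to 15 from day 5 to 49, 3 to 4 for P2 from day 5 to 12, 3 to 12 from day 12 to 49, and 0 to 6 in the interaction. P2 against P1 gave 8 to 11 at day 5 and 7 to 16 at day 49. Against spleen the ranges were 5 to 9 (PBS-labelled lung), 5 to 8 (PBS-labelled liver), 2 to 5 (PBS-labelled ear skin), 6 to 8 (DT-labelled lung), 6 to 12 (DT-labelled liver) and 1 to 5 (DT-labelled VAT), and 2 to 6 for VAT against ear skin. Libraries that moved a count by over 1.5 times are named with the results.

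With the replicate number as a replicate block, counts stayed within 1.5 times of those reported, for example 17 calls in P1 and 18 in P2 from day 5 to 49, 8 in PBS-labelled and 11 in DT-labelled liver. Same-numbered libraries did not deviate together (correlations of -0.189 to 0.154, in no comparison all over 0.1). With so few libraries per group, this cannot tell whether same-numbered libraries share a mouse, which the labels do not say. The block was defined within an age, a population or an arm and was not run for the interaction. No paired analysis was possible for DT against PBS because the arms share no replicate numbers. Depth limits the scarce members Idi1, Fads2 and Hsd17b7 most.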

Other observations

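Genes beside the pathway also separated the thymic populations. Scarb1, a receptor for lipoprotein cholesterol, was lower in P2 than in P1 at day 5 (17.6 ± 1.38 against 55.2 ± 10.1 CPM, SD, 3 libraries each), at day 12 (9.01 ± 6 against 30.9 ± 5.62) and at day 49 (6.6 ± 4.71 against 25.1 ± 4.77), each called by edgeR. Acss2, which makes acetyl-CoA from acetate, was higher in P2 at the same ages, at 130 ± 15.3, 163 ± 12.8 and 134 ± 18 CPM against 75.2 ± 9.17, 54.5 ± 9.14 and 70.6 ± 14.7. In P2 at day 49, Fasn and Scd2, which make and desaturate fatty acids, were lower than in P1, at 48.5 ± 18.2 against 145 ± 28 CPM and at 62.3 ± 5.62 against 160 ± 7.43.

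In the periphery Fntb, a subunit of the farnesyl transferase that attaches a product of the module's early steps to proteins, was lower than in spleen in all 4 tissues of both arms. In the PBS-labelled arm it was at 48.6 ± 9.55 CPM in spleen, 20.6 ± 6.61 in lung, 14.4 ± 5.06 in liver, 20.3 ± 9.32 in ear skin and 20.3 ± 3.40 in VAT. Lipa, the lysosomal lipase that frees cholesterol from its esters, was lower in ear skin and VAT than in spleen in both arms, while Nceh1, which hydrolyses cholesterol esters outside the lysosome, was higher. In PBS-labelled VAT they were at 78.4 ± 12.4 CPM against 188 ± 57.9 and at 108 ± 13.6 CPM against 44.9 ± 3.16.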
